A study of Mus musculus with 6 samples.

Results

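The genes described here are 10 genes of the hypoxia response and of glycolysis: Hif1a, Egln3, Slc2a1, Hk2, Pfkfb3, Pgk1, Ldha, Adm, Bnip3 and Ndrg1. They were taken by name from the gene symbols of the array, with the brightest probe set of each over the 6 arrays, and make up 10 of the 21630 genes that the array names with 1 symbol. Lung RNA came from 6 mice of strain C57BL/6, 8 weeks old, each injected intraperitoneally with 100 uL a day for 7 days, with 2 mice in each of 3 groups and 1 array for each mouse. In the LN4 group (replicates 1 and 3) the injected fluid was culture medium from PC3M-LN4, a metastatic derivative of the human prostate cancer line PC3, and in the PC3 group (replicates 4 and 5) it was culture medium from PC3 itself. The Control group (replicates 2 and 4) was given RPMI, a culture medium with no tumour cell products. The labels name injected medium and no injected tumour cells, and what each conditioned medium held was not measured here. The study's title sets prometastatic lungs against lungs that resist metastasis. Values are the authors' log2 RMA values, on which a difference of 1 is a doubling, and differences come from a limma fit with the standard error (SE) of that fit. A level is called near background where it lies under the 95th percentile of the negative control probe sets of its array, which was 7.37 to 7.69 on the log2 scale.

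Cells sense oxygen through prolyl hydroxylases, of which Egln3 encodes one. With oxygen present these enzymes mark the hypoxia-inducible factor subunit encoded by Hif1a for destruction, so this factor is controlled largely at the protein level and its mRNA need not follow its activity. When oxygen falls, the factor binds hypoxia response elements near genes for glucose uptake and glycolysis and near Egln3 itself, and some of these genes also respond to growth signals and to the type of cell. The lung is normally well supplied with oxygen, and its endothelium and type 2 cells carry much of the related factor encoded by Epas1.

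Promoters are shown first for the genes that stood over 0.5 above every other lung in LN4 replicate 3, with the core letters of the hypoxia response element marked. These letters are not particular to them: ACGTG is also in the windows of Pfkfb3, which was lowest in that lung, and of Hif1a and Bnip3. Each is the 250 bases before the RefSeq gene start in GRCm38.p6, read 5′ to 3′ on the strand of the gene. Capitals mark ACGTG or its match on the other strand, and likewise GCGTG. These are the windows of Egln3 (chr12:54203875-54204124, minus strand), Slc2a1 (chr4:119108495-119108744, plus strand), Hk2 (chr6:82774455-82774704, minus strand), Pgk1 (chrX:106186850-106187099, plus strand) and the first of the windows of Ldha (chr7:46845554-46845803, plus strand).
Egln3: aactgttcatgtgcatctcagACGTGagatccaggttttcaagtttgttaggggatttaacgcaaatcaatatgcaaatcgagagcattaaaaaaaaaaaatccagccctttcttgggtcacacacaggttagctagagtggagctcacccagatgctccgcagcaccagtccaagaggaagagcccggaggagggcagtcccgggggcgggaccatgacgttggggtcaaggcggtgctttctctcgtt
Slc2a1: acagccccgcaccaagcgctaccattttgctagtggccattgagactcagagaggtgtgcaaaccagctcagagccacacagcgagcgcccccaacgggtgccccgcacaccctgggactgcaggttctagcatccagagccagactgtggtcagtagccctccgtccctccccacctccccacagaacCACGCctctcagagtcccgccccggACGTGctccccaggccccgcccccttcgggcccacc
Hk2: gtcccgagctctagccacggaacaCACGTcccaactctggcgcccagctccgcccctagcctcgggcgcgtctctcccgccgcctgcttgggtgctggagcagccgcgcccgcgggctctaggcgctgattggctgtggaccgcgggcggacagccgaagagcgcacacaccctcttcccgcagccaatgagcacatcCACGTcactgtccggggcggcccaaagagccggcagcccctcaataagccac
Pgk1: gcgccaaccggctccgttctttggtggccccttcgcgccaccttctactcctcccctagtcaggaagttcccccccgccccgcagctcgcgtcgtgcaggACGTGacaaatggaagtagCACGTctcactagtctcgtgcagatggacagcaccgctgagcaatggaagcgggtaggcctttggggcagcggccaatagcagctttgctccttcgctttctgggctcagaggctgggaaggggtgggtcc
Ldha: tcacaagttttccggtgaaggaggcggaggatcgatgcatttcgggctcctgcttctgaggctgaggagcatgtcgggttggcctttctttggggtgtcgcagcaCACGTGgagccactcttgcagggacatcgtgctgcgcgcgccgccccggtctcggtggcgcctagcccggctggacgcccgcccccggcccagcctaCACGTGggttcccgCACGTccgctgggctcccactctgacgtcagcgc
Windows were found for 9 of the 10 genes, with 11 windows in all, and not for Ndrg1. All 11 windows held at least 1 match to either motif, against 38.6% of the 32851 mouse windows of the same length. ACGTG was found in 9 of the 11 windows, from 8 genes, against 16.6% of all windows, and GCGTG in 5 of 11, against 28.2%. The genes were chosen as known hypoxia genes, so these shares describe the choice. The Ldha window had 5 matches, of which 4 came from the palindrome CACGTG at 2 places, which reads ACGTG on both strands. The Egln3 window had 1 match, starting 229 bases before the gene start, and the Hk2 window had 2, at 226 and 52 bases. The GC share of the 11 windows ran from 50.8% to 72.4%, and the median of all windows was 52.4%. A match is a string of letters, and no binding was measured.

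None of the 10 genes passed the test in any comparison, and 9 of the 10 had their highest level of the 6 lungs in the same mouse, LN4 replicate 3. Of all 21330 tested probe sets, 19.6% had their highest level there. In 6 of the 10 genes (Egln3, Slc2a1, Hk2, Pgk1, Ldha and Ndrg1) this lung stood over 0.5 above every other lung, against 5.37% of all tested probe sets. Pfkfb3 went the other way, with its lowest level in LN4 replicate 3. Bnip3 counts among the 9 by its brighter probe set, while its other probe set was highest in LN4 replicate 1. The 10 genes were chosen with earlier results of these data known, so these counts are descriptions. The gap between the mice of a group had a median over the 10 genes of 1.10 in LN4 lungs, 0.21 in PC3 lungs and 0.18 in Control lungs, against 0.31, 0.24 and 0.17 over all tested probe sets. The LN4 gap was the largest of the 3 for 8 of the 10 genes. The plot of the 10 genes by lung shows this separation.

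**Figure D1:**
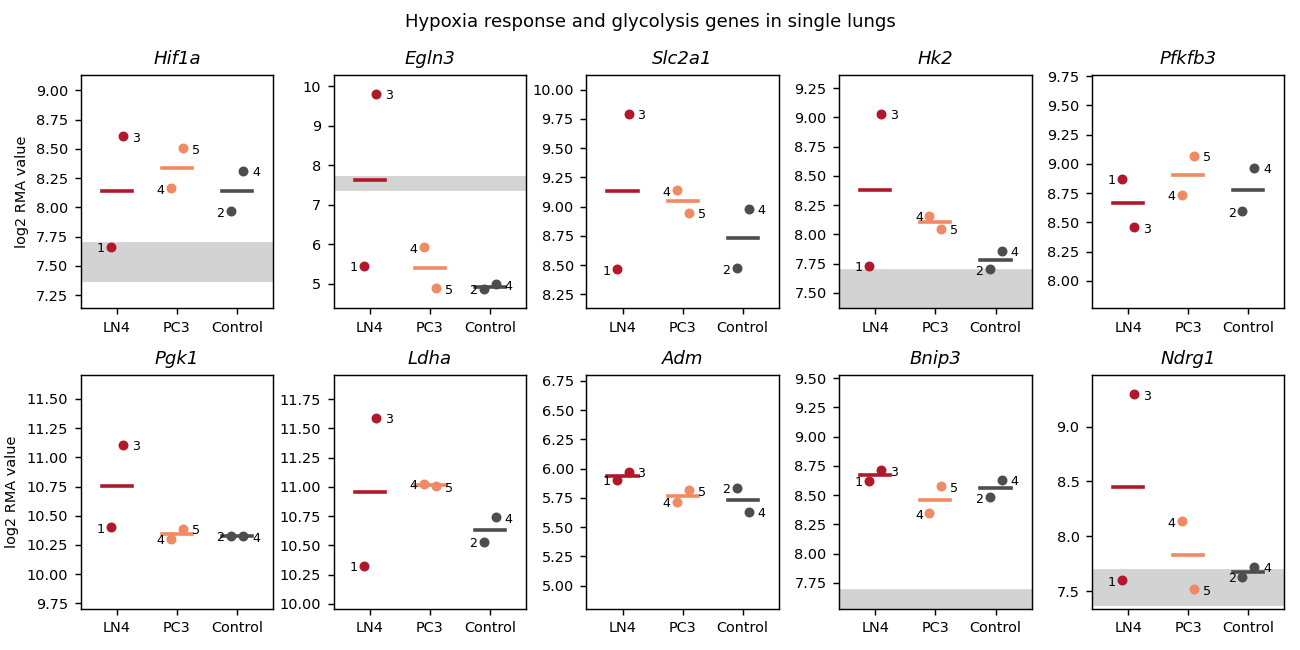
Log2 RMA value (vertical axis, a separate scale for each gene) of the 10 genes in LN4, PC3 and Control lungs, with the replicate number beside each point, a bar at each group mean (n = 2) and the range of the negative controls' 95th percentile in grey where it falls within the panel. LN4 replicate 3 is the highest point in 9 panels and the lowest in the Pfkfb3 panel.

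The arrays themselves differed. LN4 replicate 3 had a correlation of 0.918 to 0.933 with the other arrays over all tested probe sets, and the other pairs had 0.961 to 0.990. The first principal component, which held 57.8% of the variance, carried its largest weight on that array. The chip report's share of detected probe sets was 35.4% in LN4 replicate 1, 46.1% in LN4 replicate 3, 39.8% and 50.9% in PC3 replicates 4 and 5, and 38.4% and 48.4% in Control replicates 2 and 4. Each group thus had 1 array of lower and 1 of higher detection, and differences are also given within the lower pair (LN4 replicate 1, PC3 replicate 4, Control replicate 2) and the higher pair (LN4 replicate 3, PC3 replicate 5, Control replicate 4). The lung label fitted the markers: 7 of 7 alveolar type 2, 5 of 5 alveolar type 1 and 6 of 6 endothelial genes were above the negative controls in every lung.

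Genes of stratified squamous epithelium and of skeletal muscle were high in LN4 replicate 3 as well. Of 16 genes of stratified squamous epithelium, 0 were above the negative controls in LN4 replicate 1, 14 in LN4 replicate 3, 5 in PC3 replicate 4 and 0 in PC3 replicate 5 and both Control lungs. Their mean level was 5.34 and 10.54 in LN4 replicates 1 and 3, 6.78 and 4.99 in PC3 replicates 4 and 5, and 5.11 and 5.06 in Control replicates 2 and 4. Krt13, a keratin of such epithelium, read 5.09 and 13.61 in the LN4 lungs, 10.63 and 5.06 in the PC3 lungs and 5.16 and 4.63 in the Control lungs. Of 15 skeletal muscle genes, 13 were above the negative controls in LN4 replicate 3 and 0 in each other lung, and their mean was 5.61 and 9.29 in LN4 lungs, 5.58 and 5.34 in PC3 lungs and 5.57 and 5.40 in Control lungs. The mean of the 10 hypoxia and glycolysis genes was likewise highest in LN4 replicate 3. It was 8.10 and 9.24 in LN4 lungs, 8.37 and 8.27 in PC3 lungs and 8.04 and 8.22 in Control lungs. Among the remaining lungs this mean and the squamous mean were both highest in PC3 replicate 4, and the muscle mean in LN4 replicate 1. The order of the PC3 lungs in the mean of the 10 genes rests on Egln3, at 5.93 and 4.88 and near background in both. The mean of the alveolar type 2 genes was 12.05 and 11.79 in LN4 lungs, 12.22 and 12.42 in PC3 lungs and 12.17 and 12.31 in Control lungs. Cardiomyocyte genes (mean 7.78) and adipocyte genes (5.72, with 0 above the negative controls) were also at their lowest in LN4 replicate 3. The neutrophil mean was highest in Control replicate 4 (7.27) and the erythroid mean in LN4 replicate 3 (9.86). What part these tissues' RNA has in the values of the 10 genes was not tested. In whole lungs, more or fewer cells of a type and more or less RNA per cell cannot be told apart.

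**Figure D2:**
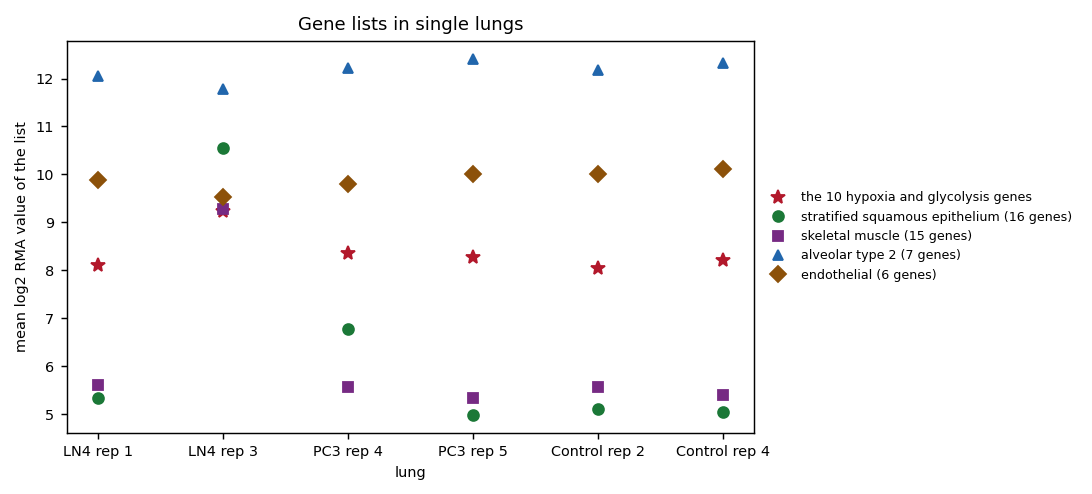
Mean log2 RMA value (vertical axis) of the 10 hypoxia and glycolysis genes and of 4 marker lists in each of the 6 lungs (horizontal axis). In LN4 replicate 3 the 10 genes (9.24), the squamous genes (10.54) and the muscle genes (9.29) are at their highest, while the alveolar type 2 (11.79) and endothelial genes (9.53) are at their lowest.

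Hif1a, which encodes the oxygen-regulated subunit of the factor, differed little between group means. It read 7.66 and 8.61 in the LN4 lungs, 8.16 and 8.51 in the PC3 lungs and 7.97 and 8.31 in the Control lungs. All 3 groups overlapped, with the LN4 mice at both ends of the order. In each group the array of higher detection read higher. The difference was -0.005 (SE 0.33) for LN4 minus Control and 0.19 (SE 0.33) for PC3 minus Control. Within the lower and higher detection pairs, LN4 minus Control was -0.30 and 0.29.

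Egln3, the oxygen sensor that is itself a target of the factor, had the widest spread of the 10 genes. It read 5.45 and 9.80 in the LN4 lungs, 5.93 and 4.88 in the PC3 lungs and 4.87 and 4.99 in the Control lungs. Only LN4 replicate 3 lay above the negative controls, 3.88 above the next lung, and the other 5 values are near background. The LN4 minus Control difference was 2.70 (SE 1.22), with a 95% interval of -0.19 to 5.59 and limma gave an adjusted p of 0.9997. With the Control lungs set at the negative-control level, LN4 replicate 3 alone was at least 4.57-fold higher. No bound is given for the LN4 mean, because LN4 replicate 1 is itself near background. PC3 minus Control was 0.48 (SE 1.22), with both groups near background. Without LN4 replicate 3 the LN4 minus Control difference was 0.52, and without LN4 replicate 1 it was 4.87 and passed (adjusted p = 0.0005379, limma), with the remaining LN4 lung assumed to vary like the other groups.

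Slc2a1 encodes GLUT1, which carries glucose into the cell. It read 8.47 and 9.79 in the LN4 lungs, 9.14 and 8.95 in the PC3 lungs and 8.47 and 8.98 in the Control lungs. One LN4 lung was the highest of the 6 and the other sat level with the lowest Control lung, so that every pair of groups overlapped. The differences were 0.40 (SE 0.42) for LN4 minus Control and 0.32 (SE 0.42) for PC3 minus Control. Without LN4 replicate 3, LN4 minus Control was -0.26.

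Hk2, an inducible hexokinase, traps glucose in the cell as glucose 6-phosphate. It read 7.73 and 9.03 in the LN4 lungs, 8.16 and 8.05 in the PC3 lungs and 7.70 and 7.86 in the Control lungs. Both PC3 lungs lay above both Control lungs, by 0.46 in the lower and 0.19 in the higher detection pair, while LN4 replicate 1 lay between the Control lungs. The differences were 0.60 (SE 0.39) for LN4 minus Control and 0.32 (SE 0.39) for PC3 minus Control, and neither passed. Without LN4 replicate 3 the LN4 minus Control difference was -0.05. Without LN4 replicate 1 it was 1.25, with LN4 replicate 3 as the only LN4 lung.

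Pfkfb3 makes the fructose 2,6-bisphosphate that drives phosphofructokinase. It read 8.87 and 8.46 in the LN4 lungs, 8.74 and 9.07 in the PC3 lungs and 8.59 and 8.97 in the Control lungs. LN4 replicate 3 was the lowest lung and PC3 replicate 5 the highest, and the groups overlapped in every comparison. The differences were -0.11 (SE 0.24) for LN4 minus Control and 0.12 (SE 0.24) for PC3 minus Control, and without LN4 replicate 3 the first was 0.09.

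Pgk1, which makes ATP in the pay-off phase of glycolysis, read 10.40 and 11.11 in the LN4 lungs, 10.30 and 10.39 in the PC3 lungs and 10.33 and 10.32 in the Control lungs. Both LN4 lungs lay above all 4 other lungs, though LN4 replicate 1 by only a small margin over PC3 replicate 5. The differences were 0.43 (SE 0.25) for LN4 minus Control and 0.02 (SE 0.25) for PC3 minus Control. The array has 3 probe sets for Pgk1 under the same accession, of which a pair held identical values, and the third gave 0.42 (SE 0.24) for LN4 minus Control. Signal from near-identical copies of this gene could not be told apart. Without LN4 replicate 3 the LN4 minus Control difference was 0.08.

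Ldha encodes the lactate dehydrogenase subunit that turns pyruvate into lactate. It read 10.32 and 11.59 in the LN4 lungs, 11.03 and 11.01 in the PC3 lungs and 10.53 and 10.74 in the Control lungs. Both PC3 lungs lay above both Control lungs and close to each other, whereas the LN4 lungs were the lowest and the highest of all 6. PC3 minus Control was 0.38 (SE 0.38), at 0.50 in the lower and 0.27 in the higher detection pair, and LN4 minus Control was 0.32 (SE 0.38). Without LN4 replicate 3, LN4 minus Control was -0.31.

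The other 3 genes are targets outside glycolysis. Adm, which encodes the vasodilator peptide adrenomedullin, was near background in all 6 lungs, at 5.91 and 5.98 in LN4 lungs, 5.72 and 5.82 in PC3 lungs and 5.84 and 5.63 in Control lungs. Both LN4 values were the highest, by 0.07 in the lower pair and 0.35 in the higher pair against Control, but all lie under the negative controls. No fold change is given for it.

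Bnip3, a mitochondrial protein that promotes mitophagy, varied least among the genes above background. It read 8.62 and 8.71 in the LN4 lungs, 8.34 and 8.57 in the PC3 lungs and 8.48 and 8.63 in the Control lungs. The LN4 lungs lay above the PC3 lungs and overlapped the Control lungs, with a LN4 minus Control difference of 0.11 (SE 0.18) and a PC3 minus Control difference of -0.10 (SE 0.18). A second Bnip3 probe set of the same accession read 8.31 and 8.06 in LN4 lungs, 7.85 and 7.98 in PC3 lungs and 7.95 and 7.92 in Control lungs, and there both LN4 lungs lay above all others. Its LN4 minus Control difference was 0.25 (SE 0.18). The second probe set had its highest level in LN4 replicate 1, the first in LN4 replicate 3. Which locus each of these probe sets measures was not settled.

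Ndrg1, a stress-responsive gene linked to differentiation and to metastasis suppression, read 7.60 and 9.29 in the LN4 lungs, 8.14 and 7.52 in the PC3 lungs and 7.63 and 7.72 in the Control lungs. It was highest in LN4 replicate 3, followed by PC3 replicate 4, and close to the negative controls elsewhere. The differences were 0.77 (SE 0.51) for LN4 minus Control and 0.15 (SE 0.51) for PC3 minus Control. Without LN4 replicate 3 the LN4 minus Control difference was -0.08. It was 1.62 without LN4 replicate 1, with LN4 replicate 3 as the only LN4 lung.

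Between LN4 lungs and Control lungs, 8 of the 10 genes had a higher group mean and 2 (Hif1a and Pfkfb3) a lower one, and 0 passed the adjusted p of 0.05, as did 0% of all 21330 tested probe sets. The median difference of the 10 genes was 0.36, against -0.016 over all tested probe sets. It was 0.05 in the lower detection pair, 0.80 in the higher pair and 0.0092 without LN4 replicate 3. The arrays did not overlap for 3 genes (Egln3, Pgk1 and Adm), all higher in LN4 lungs, while 12.0% of all probe sets were higher and 16.9% lower in that sense. Of these genes, Adm was near background in every lung, and Egln3 in every lung but LN4 replicate 3. Unadjusted p under 0.05 was reached by 0 of the 10 genes and by 437 probe sets in all. Leaving out LN4 replicate 1 turned the count of passing probe sets to 853, with Egln3, Hk2 and Ndrg1 among them and a median of 0.87, which then sets 1 lung against Control.

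Between PC3 lungs and Control lungs, 9 of the 10 genes had a higher mean and 1 (Bnip3) a lower one, with 0 genes passing and 0% of all probe sets. The median difference was 0.17, against 0.016 over all tested probe sets, at 0.33 in the lower and 0.08 in the higher detection pair. It was 0.085 without Control replicate 2 and 0.34 without Control replicate 4. Hk2 and Ldha did not overlap, both higher in PC3 lungs, against 16.4% of all probe sets higher and 15.3% lower. At an unadjusted p under 0.05 there were 0 of the 10 genes and 477 probe sets. The gap between the LN4 mice enters the SE of this comparison too. PC3 replicate 5 lay above both Control lungs for 5 of the 10 genes, against 38.65% of all tested probe sets.

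**Figure D3:**
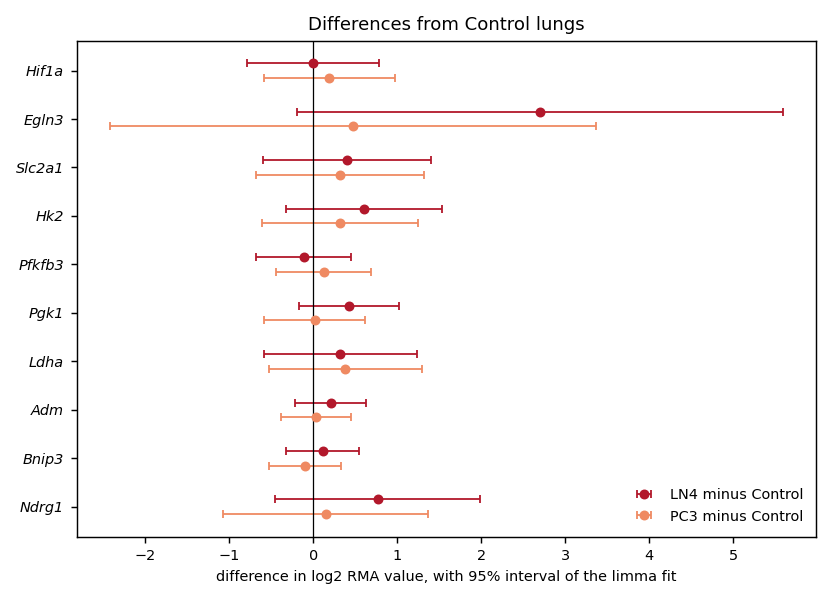
Difference in log2 RMA value (horizontal axis) of the 10 genes for LN4 minus Control and PC3 minus Control, with the 95% interval of the limma fit (2 lungs per group). Every interval includes 0, and the widest is that of Egln3, from -0.19 to 5.59 for LN4 minus Control. Both comparisons use the same Control lungs.

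Set directly against PC3 lungs, LN4 lungs had a higher mean for 7 of the 10 genes and a lower one for Hif1a (-0.20, SE 0.33), Pfkfb3 (-0.24, SE 0.24) and Ldha (-0.06, SE 0.38). Again 0 genes and 0% of all probe sets passed the adjusted p of 0.05, with 0 genes and 1094 probe sets at an unadjusted p under 0.05. The arrays of Pgk1, Adm and Bnip3 did not overlap, all higher in LN4 lungs, against 11.4% of all probe sets higher and 18.1% lower. Adm was near background in every lung. The median difference of the 10 genes was 0.19, at -0.45 in the lower and 0.65 in the higher detection pair, and -0.13 without LN4 replicate 3. The Ndrg1 difference was 0.62 (SE 0.51). For Egln3 the fit gave 2.22 (SE 1.22), with both PC3 lungs and LN4 replicate 1 near background. With the PC3 lungs set at the negative-control level, LN4 replicate 3 alone was at least 4.81-fold higher for Egln3. Without LN4 replicate 1 the median difference was 0.66, with Egln3 at 4.40 and Ndrg1 at 1.47, which sets 1 LN4 lung against the PC3 lungs. With LN4 replicate 3 and PC3 replicate 4, the lungs with squamous genes, both left out, the spread rests on the Control lungs alone. Then 2593 probe sets passed in LN4 minus PC3, among them Hif1a at -0.84 (adjusted p = 0.01436, limma) and Ldha at -0.68 (adjusted p = 0.04986, limma), both lower in the LN4 lung. That sets 1 lung of lower detection (LN4 replicate 1) against 1 of higher detection (PC3 replicate 5), so treatment and detection cannot be told apart. Within the lower and higher detection pairs, LN4 minus PC3 was -0.50 and 0.10 for Hif1a. In the same fit 200 probe sets passed in LN4 minus Control and 514 in PC3 minus Control, with none of the 10 genes among them.

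The other steps of glycolysis were read in the same lungs. Of 22 other glycolytic and lactate transport genes, 18 had a higher and 4 a lower mean in LN4 than in Control lungs, with 0 passing and a median of 0.44. The median of LN4 replicate 1 minus the Control mean was 0.0072, and that of LN4 replicate 3 was 0.81. LN4 replicate 3 was the highest of the 6 lungs for 16 of the 22. The rule for named genes gave Eno3 and Pgam2, the muscle forms of enolase and phosphoglycerate mutase, and Pfkm, the muscle form of phosphofructokinase. Eno3 read 7.10 and 10.13 in LN4 lungs, 7.32 and 7.23 in PC3 lungs and 7.05 and 7.17 in Control lungs, a LN4 minus Control difference of 1.50 (SE 0.83). Pgam2 read 6.06 and 8.26 in LN4 lungs, 5.72 and 5.65 in PC3 lungs and 5.73 and 5.33 in Control lungs, a difference of 1.63 (SE 0.62). Pfkm read 7.67 and 9.50 in LN4 lungs, 7.97 and 7.87 in PC3 lungs and 7.71 and 7.62 in Control lungs, a difference of 0.92 (SE 0.52). Away from LN4 replicate 3, Pgam2 and Eno3 were near background, so their differences have no measured lower side. All 3 were highest in the same lung as the skeletal muscle markers, such as Ckm at 6.47 and 11.12 in LN4 lungs, 6.44 and 6.49 in PC3 lungs and 6.47 and 6.27 in Control lungs.

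In PC3 lungs most genes of the glycolytic list had slightly higher levels than in Control lungs. Of its 22 genes, 18 had a higher and 4 a lower mean in PC3 lungs, with 0 passing and a median of 0.18, at 0.26 in the lower and 0.09 in the higher detection pair. The arrays did not overlap for 16 of the 22, with 14 higher and 2 lower (Eno2 and Ldhb), against the 16.4% and 15.3% of all probe sets above. PC3 replicate 5 alone lay above both Control lungs for 15 of the 22, against 38.65% of all tested probe sets. The list was chosen with results of these data known, and genes of 1 pathway vary together, so the count is a description. Slc16a1, a lactate and pyruvate transporter, had the largest difference. It read 8.51 and 8.95 in LN4 lungs, 9.27 and 8.75 in PC3 lungs and 8.05 and 8.44 in Control lungs, a PC3 minus Control difference of 0.76 (SE 0.27), and all 4 lungs given conditioned medium lay above both Control lungs. Aldoc, an aldolase, read 7.22 and 8.22 in LN4 lungs, 7.83 and 7.72 in PC3 lungs and 7.01 and 7.37 in Control lungs, a difference of 0.59 (SE 0.33). Of the 22 genes, 5 have several probe sets on the array, among them Gapdh with 35, and their levels may hold signal from near-identical copies.

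**Figure D4:**
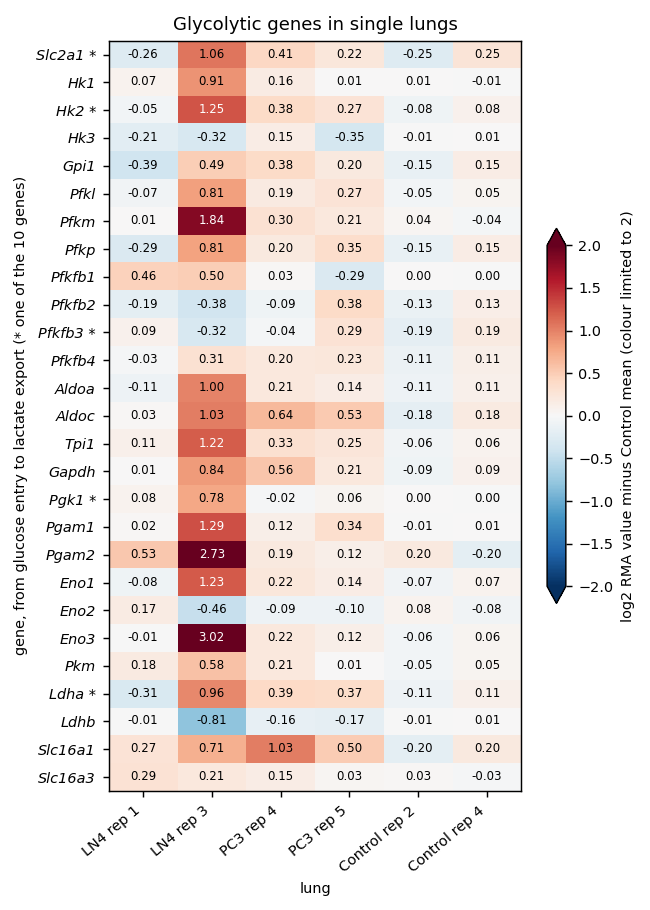
Log2 RMA value minus the mean of the Control lungs for 27 glycolytic genes (vertical axis, in pathway order, with an asterisk for those among the 10) in each of the 6 lungs (horizontal axis), with the value printed in each cell. Red is above and blue below the Control mean, with colours limited to 2. The LN4 replicate 3 column holds the largest values, up to 3.02 for Eno3, and the LN4 replicate 1 column lies on both sides of 0.

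The regulators of the factor had median differences near 0. Of 14 (Hif1a and Egln3 among them), 6 had a higher and 8 a lower mean in LN4 than in Control lungs, with a median of -0.01, and 9 a higher and 5 a lower mean in PC3 lungs, with a median of 0.02, with 0 passing in either. Epas1, the related factor subunit of endothelium and type 2 cells, read 12.20 and 11.48 in LN4 lungs, 12.19 and 12.04 in PC3 lungs and 12.13 and 12.24 in Control lungs. Its low value was in LN4 replicate 3, the lung in which the endothelial and type 2 markers were lowest, and its LN4 minus Control difference was -0.34 (SE 0.26). Egln1, the main oxygen sensor in most tissues, had a LN4 minus Control difference of 0.21 (SE 0.18), and the coactivator gene Ep300 one of -0.21 (SE 0.20). Vhl, whose product recognises the marked factor, was near background in all lungs, with a PC3 minus Control difference of -0.18 (SE 0.17), and Hif1an, a second hydroxylase of the factor, had one of 0.16 (SE 0.21).

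Among 30 tested hypoxia targets outside the 10 genes, 24 had a higher and 6 a lower mean in LN4 than in Control lungs, with 0 passing and a median of 0.12. In PC3 lungs 23 were higher and 7 lower, with 0 passing and a median of 0.07. Of the 30, 8 were higher and 2 lower without overlap in LN4 lungs, against 12.0% and 16.9% of all probe sets. For PC3 lungs 7 were higher and 3 lower in that sense, against 16.4% and 15.3%. Of the 8, Car9, Ak4 and Angptl4, named here for their low levels, were near background in all 6 lungs. Car12 and Pdk4, also of the 8, were so in all but LN4 replicate 3. Stc2, among the lower in LN4 lungs, was near background throughout. Car12, a carbonic anhydrase, had the pattern of Egln3, at 4.69 and 9.18 in LN4 lungs, 4.76 and 4.21 in PC3 lungs and 4.59 and 4.62 in Control lungs, and was above the negative controls only in LN4 replicate 3. Pdk4, an inhibitory kinase of pyruvate dehydrogenase, was higher in both LN4 lungs, at 6.93 and 7.40, against 6.34 and 6.14 in PC3 lungs and 5.97 and 6.16 in Control lungs, with a LN4 minus Control difference of 1.10 (SE 0.22) that did not pass. Only LN4 replicate 3 was above the negative controls for it. Fam162a, a mitochondrial protein, read 9.11 and 10.24 in LN4 lungs, both above all other lungs, and averaged 8.73 (SD 0.03, n = 2) in PC3 lungs and 8.87 (SD 0.18, n = 2) in Control lungs, a LN4 minus Control difference of 0.81 (SE 0.35). In PC3 lungs the largest differences from Control were in Higd1a, a mitochondrial protein, and Edn1, which encodes the vasoconstrictor endothelin-1. The Higd1a difference was -0.64 (SE 0.41), at -1.10 in the lower and -0.19 in the higher detection pair. Higd1a was near background in PC3 replicate 4, and the array has a further probe set for it. The Edn1 difference was 0.43 (SE 0.19).

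The genes most like the members were sought over the 6 lungs, by the mean absolute distance between profiles centred on their own means, for the 5 members with a range of at least 1 over the lungs. For Egln3 they were Lce1a1 (distance 0.066), Klk10 (0.077) and Bglap3 (0.115), of which Lce1a1 is a gene of the cornified skin envelope. For Hk2 they were Rars (0.039), Tpi1 (0.052) and Eno1 (0.056). For Ldha they were Gm10291 (0.040), Pgd (0.042) and Gm2451 (0.043), for Slc2a1 Mycbp2, Gramd3 and Hspb8, and for Ndrg1 Dcaf4, Smpd3 and Ldb3. With 6 lungs, of which 1 stands apart, such likeness rests mainly on that lung.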

How the data were processed

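Per the labels' protocols, minced lung tissue gave column-purified RNA, of which 10 ug per mouse was turned into biotinylated cRNA for an Affymetrix mouse gene array. The authors deposited log2 values from RMA, per the submitters' processing notes, a method that corrects background, equalises the arrays and summarises probes. The software version is not given in the sources used here. Per the file headers of the authors' chip report, a percent column gives the share of probe sets detected above background, and a score column holds each array's mean absolute RMA residual, which was 0.159 to 0.242.

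Of the 35556 probe sets, 7116 controls were dropped, then the dimmest 25% of the remainder by mean, which left 21330; all 10 genes passed. Symbols were updated through the RefSeq table of GRCm38.p6. One limma fit of 3 group means used all 6 arrays, with empirical Bayes moderation, two-sided tests and Benjamini-Hochberg adjustment over all probe sets. Arrays have no read depth, and their number (2 per group) limits precision. The fit was run on simulated data in which all probe sets and arrays had the same spread and no array stood apart. That setting differs from these arrays, so it does not show how the fit behaves on them. Other filters, normalizations, array weights, moderation, a block for detection class, probe set choice and left-out arrays were alternatives. The genes named outside the 10 are, by rule, the list members with the largest differences (3 for LN4 and 2 for PC3 against Control) and the 3 most alike genes; exceptions are stated. The 10 genes and the lists were chosen with earlier results of these data known. R 4.3.3, limma 3.58.1, Python 3.11.15 and matplotlib 3.10.9 were used.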

Additional observations from a re-analysis of the deposited data

How the results depend on the processing

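No paired analysis was possible because Control and PC3 lungs share only replicate number 4 and LN4 lungs share none. Leaving out 1 lung at a time, the count of passing probe sets ran from 0 to 853 for LN4 minus Control and from 0 to 715 for LN4 minus PC3, and the median difference of the 10 genes from 0.0092 to 0.87 and from -0.13 to 0.66. For PC3 minus Control the count stayed at 0 and the median ran from 0.085 to 0.34. In LN4 minus Control the sign turned for Hif1a (-0.48 to 0.47), Hk2 (-0.049 to 1.25), Ldha (-0.31 to 0.96), Ndrg1 (-0.079 to 1.62), Pfkfb3 (-0.32 to 0.093) and Slc2a1 (-0.26 to 1.06). In LN4 minus PC3 the sign turned for Hif1a (-0.67 to 0.27), Hk2 (-0.37 to 0.93), Ldha (-0.69 to 0.57), Ndrg1 (-0.23 to 1.47) and Slc2a1 (-0.58 to 0.75). In PC3 minus Control the sign turned for Adm (-0.071 to 0.14), Bnip3 (-0.21 to 0.017), Egln3 (-0.049 to 1.00), Ndrg1 (-0.16 to 0.46), Pfkfb3 (-0.062 to 0.31) and Pgk1 (-0.023 to 0.060). With LN4 replicate 3 and PC3 replicate 4 left out together, the spread rests on the 2 Control lungs alone. Then 200 probe sets passed in LN4 minus Control, 514 in PC3 minus Control and 2593 in LN4 minus PC3. The sign turned in LN4 minus Control for Hk2 (-0.049), Ldha (-0.31), Ndrg1 (-0.079), Pfkfb3 (0.093) and Slc2a1 (-0.26), in LN4 minus PC3 for Hk2 (-0.32) and Slc2a1 (-0.48), and in PC3 minus Control for Bnip3 (0.017), Egln3 (-0.049) and Ndrg1 (-0.16), and in LN4 minus PC3 Hif1a (-0.84, adjusted p = 0.01436) and Ldha (-0.68, adjusted p = 0.04986) passed in limma. Centring each array on its median turned Pgk1 in PC3 minus Control to -0.0068. Under no filter, quantile normalization, array weights, the detection block, the 2 groups alone, robust moderation and the mean of all probe sets of a gene, each of the 10 genes kept its direction and 0 probe sets passed; requiring values above the negative controls in 2 arrays drops Egln3 and Adm.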

Other observations

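In the hypoxia target list, both LN4 lungs stood above all other lungs for Pdk4, Fam162a, Ak4, Slc16a3 and Angptl4. Ak4 was near background in all 6 lungs, and Pdk4 in all but LN4 replicate 3. Over all tested probe sets, 12.0% were higher without overlap against Control lungs and 11.4% against PC3 lungs. The share that met both was not counted. Angptl4, an inhibitor of lipoprotein lipase, read 7.34 and 7.04 in LN4 lungs, 6.71 and 6.46 in PC3 lungs and 6.59 and 6.57 in Control lungs. Its higher value was in LN4 replicate 1, and all 6 values were near background. What part other cell types have in these values was not tested. Its LN4 minus Control difference of 0.61 (SE 0.20) did not pass in limma (adjusted p = 0.9997), and Ak4, Slc16a3 and Angptl4 were named after their values were seen.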
